A study of Homo sapiens with 7 samples.

Results

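The genes described here are MUC16, its binding partner MSLN, CD55, DSC3 and AHNAK, 5 of the 66025 gene IDs in the deposited count table, of which 22926 were tested after a filter on low counts. MUC16, CD55, DSC3 and AHNAK were chosen because their levels were higher in the iKD2 Dox+ libraries, with no fixed threshold, and MSLN was added for its binding to MUC16 and not for its level. All 5 passed the filter. The comparisons of iKD2 Dox+ with the other groups therefore chose 4 of the genes, and for those 4 they are given as a description.

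The libraries came from β-like cells made from H1, an established human embryonic stem cell line, and sorted at stage 6 of differentiation for insulin-expressing cells with a fluorescent zinc dye. METTL14 is a subunit of the methyltransferase that places N6-methyladenosine on mRNA. The 3 iKD2 Dox+ libraries carried a lentiviral, doxycycline-inducible shRNA against METTL14 and received doxycycline, the 2 iKD2 Dox- libraries carried the same vector without the drug, and the 2 iSCR Dox+ libraries carried a non-targeting vector and received the drug. All cells were selected with puromycin, and each line came from 1 shRNA vector in 1 parental line. The replicate letters a, b and c name separate libraries, which the study describes as independent biological samples.

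MUC16 (CA125) is a membrane-bound mucin, a long protein dense in sugar chains that coats the apical face of wet epithelia such as ocular, airway, reproductive and mesothelial surfaces. Mesothelin, the product of MSLN, is anchored to the membrane by a glycosylphosphatidylinositol (GPI) lipid, is known from mesothelial cells and several carcinomas, and binds sugar chains of MUC16, which lets cells adhere to each other. CD55 (decay-accelerating factor) is another GPI-anchored protein, which breaks up complement convertases on the cell surface and so protects the cell. DSC3 is a desmosomal cadherin, one of the adhesive proteins of desmosomes, and is best known in stratified epithelia. AHNAK is a very large scaffold protein that sits beneath the plasma membrane with annexin A2 and S100A10 and is not itself exposed on the surface.

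The targeted gene was examined first. METTL14, in counts per 1e6 counts (CPM) scaled by trimmed mean of M-values, reached 18.7 (a), 16.4 (b) and 49.1 (c) with iKD2 Dox+, 39.4 (b) and 22.6 (c) with iKD2 Dox-, and 36.1 (a) and 32.2 (b) with iSCR Dox+. Replicate c labelled iKD2 Dox+ thus had the highest METTL14 level of all 7, against its label, and the levels reported for that group contain it. Libraries a and b of iKD2 Dox+ also lay above the controls for MUC16, CD55, DSC3 and AHNAK. The choice of these genes fixed that arrangement, so it is a description only. Total estimated counts ran from 14875429 to 20639156 per library. The β-cell label held for INS, the insulin gene, which ranked between 2 and 6 among the genes tested in every library.

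The members are of very unlike size. MUC16 (ENSG00000181143) lies on the minus strand of chromosome 19, at chr19:8848844-8981342 in GRCh38 with GENCODE 29, and its longest coding transcript has 84 exons and 43816 bases, with 1 longer transcript among the 15326 protein-coding genes tested. AHNAK (ENSG00000124942) lies on the minus strand of chromosome 11, at chr11:62433542-62556235, with a transcript of 18787 bases. A single exon of 18170 bases makes up 96.7% of the AHNAK transcript, whereas the longest MUC16 exon, of 21693 bases, makes up 49.5% of that transcript.

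MSLN (ENSG00000102854, plus strand, chr16:760762-768865), CD55 (ENSG00000196352, plus strand, chr1:207321376-207386804) and DSC3 (ENSG00000134762, minus strand, chr18:30990008-31042815) are of ordinary size, with transcripts of 2116, 1843 and 6939 bases against a median of 3105 bases. Sites for O-linked sugars are serine and threonine, and codons for these residues made up 36.0% of the 14507 codons of MUC16, a share that 4 tested genes exceeded. They made up 24.2% of the 550 codons of CD55, which 58 genes exceeded, against 11.4% in MSLN, 13.7% in DSC3, 7.25% in AHNAK and a median of 12.8%. The 2 members with the most serine and threonine codons were thus the mucin and CD55, whose stalk is known to carry O-linked sugars.

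The pentamer GGACT, a common form of the sequence at which N6-methyladenosine is placed, occurred 53 times in the MUC16 transcript and 17 times in that of AHNAK. It occurred 2 times in MSLN, 1 time in CD55 and 3 times in DSC3. Per kilobase of transcript these were 1.21, 0.905, 0.945, 0.543 and 0.432 occurrences, against a median of 0.948 over the tested coding genes. The high numbers in MUC16 and AHNAK thus went with their length, and no methylation was measured in these libraries.

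The start regions of 4 members are shown because these genes stood higher in the same libraries. Each line gives the 250 bases before a RefSeq start site in GRCh38.p14, read 5′ to 3′ on the gene's strand, with capitals marking the searched motifs that were found. MUC16 has 2 such starts, at chr19:9065752-9066001 and chr19:9010410-9010659, both on the minus strand and both upstream of the first base of the GENCODE 29 gene. The regions of CD55 (chr1:207321428-207321677, plus strand), DSC3 (chr18:31042743-31042992, minus strand) and AHNAK (chr11:62545827-62546076, minus strand) follow.
MUC16 upstream start: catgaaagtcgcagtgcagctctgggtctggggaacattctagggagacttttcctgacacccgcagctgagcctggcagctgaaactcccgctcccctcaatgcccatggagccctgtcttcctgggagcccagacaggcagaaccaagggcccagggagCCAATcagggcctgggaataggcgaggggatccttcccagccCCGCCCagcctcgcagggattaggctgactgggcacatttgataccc
MUC16 downstream start: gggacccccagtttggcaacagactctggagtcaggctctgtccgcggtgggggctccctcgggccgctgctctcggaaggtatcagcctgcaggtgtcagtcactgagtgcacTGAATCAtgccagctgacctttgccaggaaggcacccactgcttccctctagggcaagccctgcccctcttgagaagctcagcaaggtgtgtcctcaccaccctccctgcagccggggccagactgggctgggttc
CD55: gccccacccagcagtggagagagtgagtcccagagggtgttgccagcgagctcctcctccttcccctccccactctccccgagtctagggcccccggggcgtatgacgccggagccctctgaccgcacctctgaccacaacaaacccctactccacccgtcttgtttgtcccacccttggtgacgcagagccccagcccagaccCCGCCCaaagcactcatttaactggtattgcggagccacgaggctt
DSC3: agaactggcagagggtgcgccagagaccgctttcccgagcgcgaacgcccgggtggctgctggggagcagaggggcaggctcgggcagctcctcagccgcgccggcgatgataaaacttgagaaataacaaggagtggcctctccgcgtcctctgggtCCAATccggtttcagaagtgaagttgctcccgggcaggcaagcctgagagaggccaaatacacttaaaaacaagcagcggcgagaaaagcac
AHNAK: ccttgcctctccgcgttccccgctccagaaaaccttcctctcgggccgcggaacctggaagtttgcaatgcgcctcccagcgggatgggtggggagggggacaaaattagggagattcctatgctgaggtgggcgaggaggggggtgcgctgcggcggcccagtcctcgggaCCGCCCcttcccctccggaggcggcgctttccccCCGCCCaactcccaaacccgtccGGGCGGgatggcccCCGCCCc

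Motifs were searched on both strands, and each share is of the 35116 RefSeq promoters of this length. The GC box, spelled GGGCGG, was present in 42.6% of these promoters. The motif CCAAT, which lies upstream of many genes, was present in 32.0%. A motif bound by TEAD factors, GGAATG, was present in 11.9%, and the TATA box, searched as TATAAA, was present in 10.7%. The pattern TGANTCA, which includes the AP-1 site, was present in 6.6%, and the E-box CACGTG was present in 6.3% of them. AHNAK held 4 GC boxes, at positions -78, -44, -21 and -7 from the start site, in the most GC-rich of these regions at 70.0% GC. The upstream MUC16 start held a GC box at position -47 and a CCAAT motif at -89, CD55 a GC box at -46 and DSC3 a CCAAT motif at -92. The downstream MUC16 start held 1 match to TGANTCA at -136 and none of the others. No motif was found in all of the regions, and none held the TATA box, the TEAD motif or the E-box. These matches describe the letters in the window only.

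MUC16 took many counts in every library, and most in iKD2 Dox+. It reached 2596 (a), 2458 (b) and 3030 (c) CPM with iKD2 Dox+, ranking 21, 20 and 18 among the genes tested. It reached 711.8 (b) and 926.5 (c) CPM with iKD2 Dox- (ranks 88 and 68), and 1357 (a) and 1060 (b) CPM with iSCR Dox+ (ranks 44 and 48). No value of one group fell within another, with iKD2 Dox+ highest, iSCR Dox+ between and iKD2 Dox- lowest.

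MUC16 took 0.254%, 0.247% and 0.309% of all counts in the 3 iKD2 Dox+ libraries, 0.0708% and 0.0941% in the iKD2 Dox- libraries and 0.130% and 0.107% in the iSCR Dox+ libraries. These high counts reflected its length as well as its level. Per kilobase of transcript, MUC16 stood at 61.5 ± 6.82 CPM per kb (SD, n = 3) in iKD2 Dox+, where it ranked between 555 and 777, against 1840 to 3771 in the control libraries, and INS stood at 19080 ± 1895 CPM per kb in the same libraries. In bulk libraries such as these, a change in the number of cells of a type and a change in the RNA per cell cannot be told apart.

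MSLN was scarce in every library. Its estimated counts were 7 (a), 0 (b) and 58 (c) with iKD2 Dox+, 80 (b) and 188 (c) with iKD2 Dox-, and 0 in either replicate with iSCR Dox+. Scaled, these were 0.419, 0, 3.32, 3.90, 10.2, 0 and 0 CPM. Only the iKD2 Dox- libraries and iKD2 Dox+ c held more than 1 CPM. Between the groups that carried the METTL14 shRNA vector, iKD2 Dox+ c at 3.32 CPM lay close below iKD2 Dox- b at 3.90 CPM.

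The order of MSLN was therefore unlike that of MUC16. The libraries with the least MUC16, iKD2 Dox- b and c, held the most MSLN. A count of 0 in iSCR Dox+ a and b allowed up to 0.203 and 0.201 CPM. For each MSLN transcript, the library with the most of it, iKD2 Dox- c, held 4.84 CPM per kb of MSLN against 21.1 CPM per kb of MUC16.

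CD55 was at an intermediate level. It reached 106.9 (a), 139.1 (b) and 123.2 (c) CPM with iKD2 Dox+, 31.3 (b) and 19.9 (c) CPM with iKD2 Dox-, and 71.97 (a) and 84.6 (b) CPM with iSCR Dox+. The groups did not overlap and stood in the same order as for MUC16, with iKD2 Dox- set apart below the other two groups.

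DSC3 differed from library to library within each group. It reached 198.9 (a), 119.7 (b) and 227.7 (c) CPM with iKD2 Dox+, 54.1 (b) and 33.8 (c) CPM with iKD2 Dox-, and 70.8 (a) and 118.3 (b) CPM with iSCR Dox+. The groups just missed each other, since iKD2 Dox+ b was 1.01 times iSCR Dox+ b. Estimated counts of DSC3 were not whole numbers in 5 of the 7 libraries, so some of its reads were shared in part with transcripts of other genes, and its values carry that uncertainty.

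AHNAK was the second most abundant of the genes. It reached 1178 (a), 977.6 (b) and 1065 (c) CPM with iKD2 Dox+, 491.3 (b) and 474.2 (c) CPM with iKD2 Dox-, and 631.1 (a) and 522.6 (b) CPM with iSCR Dox+. The lowest iKD2 Dox+ library was 1.55 times the highest iSCR Dox+ library, while the 2 control groups were separated by a much smaller gap. An antisense gene within AHNAK, ENSG00000250659, averaged 0.545 CPM, and how the authors' counting used strand is not given in the sources used here.

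**Figure D1:**
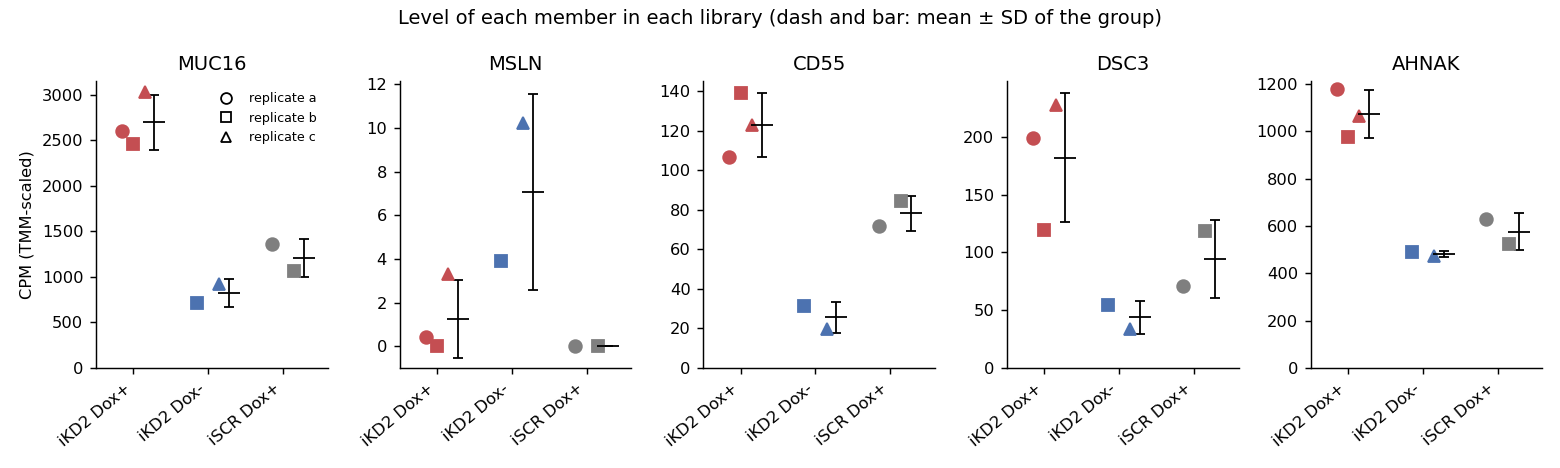
Level of each gene in CPM (linear axis, own scale per panel) in the 7 libraries, by group, with replicates a, b and c as circles, squares and triangles and the mean ± SD beside them. MUC16, CD55, DSC3 and AHNAK were highest in iKD2 Dox+ and lowest in iKD2 Dox-, whereas MSLN was highest in iKD2 Dox- at 3.90 and 10.2 CPM and at 0 in both iSCR Dox+ libraries.

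All 4 genes chosen for higher levels had all 3 iKD2 Dox+ libraries above all 4 control libraries, an arrangement found in 3.47% of the genes tested. Since the choice fixed this arrangement, the share is given only for scale. All 4 also had iSCR Dox+ between the other groups with no overlap, as 0.406% of the genes tested did. Among genes with a mean of at least 50 CPM, as all 4 have, these shares were 5.33% and 1.19%. That second feature was not named in the choice, but both comparisons of iKD2 Dox+ share its libraries, so it is a description too.

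Between genes, levels were compared per kilobase of transcript. In iKD2 Dox+, CD55, MUC16 and AHNAK stood at 66.8 ± 8.73, 61.5 ± 6.82 and 57.1 ± 5.35 CPM per kb (SD, n = 3), and these neighbours did not differ beyond their spread. DSC3 followed at 26.2 ± 8.06 CPM per kb and MSLN at 0.589 ± 0.854 CPM per kb. In iKD2 Dox-, the order was AHNAK at 25.7 ± 0.643, MUC16 at 18.7 ± 3.46, CD55 at 13.9 ± 4.35, DSC3 at 6.33 ± 2.07 and MSLN at 3.34 ± 2.12 CPM per kb (SD, n = 2), where AHNAK lay above both MUC16 values while MUC16 and CD55 overlapped.

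In iSCR Dox+, CD55 led at 42.5 ± 4.85 CPM per kb, above AHNAK at 30.7 ± 4.09 and MUC16 at 27.6 ± 4.80 CPM per kb (SD, n = 2), and AHNAK and MUC16 overlapped. DSC3 stood at 13.6 ± 4.85 CPM per kb there. CD55 thus went from the first place to the third between the control groups, while DSC3 and MSLN took the last places in every group.

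The spread between libraries of a group was set beside that of genes whose mean CPM lay within a factor of 2. The within-group SD on the log2 CPM scale was 0.215 for MUC16, against a median of 0.18 for 60 such genes. It was 0.137 for AHNAK (median 0.191), 0.278 for CD55 (median 0.413) and 0.495 for DSC3 (median 0.358). MSLN, with 3 libraries at 0, had 1.79 (median 2.36). DSC3 was more variable than 76.7% of genes of like level, and CD55, AHNAK and MSLN were less variable than most.

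The first comparison, iKD2 Dox+ against iKD2 Dox-, sets the induced beside the uninduced shRNA in one line. These groups also differ in the drug itself, and the 2 differences cannot be told apart here. MUC16 averaged 2695 ± 298.6 CPM (SD, n = 3) against 819.2 ± 151.8 CPM (SD, n = 2), a ratio of 3.29 and a fitted log2 fold change of 1.72 (95% interval 1.36 to 2.08). CD55 averaged 123.1 ± 16.1 against 25.6 ± 8.02 CPM, a ratio of 4.81 and a log2 fold change of 2.26 (1.47 to 3.05). These values are among those on which the genes were chosen.

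DSC3 averaged 182.1 ± 55.9 against 43.9 ± 14.4 CPM, a ratio of 4.14 and a log2 fold change of 2.05 (1.28 to 2.82). AHNAK averaged 1073 ± 100.4 against 482.8 ± 12.1 CPM, a ratio of 2.22 and a log2 fold change of 1.15 (0.78 to 1.53). By the ratio of means CD55 and DSC3 thus stood furthest apart between the groups and AHNAK least, and the intervals of CD55, DSC3 and MUC16 overlapped.

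By edgeR's quasi-likelihood test with Benjamini-Hochberg adjustment over all genes tested, 4 of the 5 members had an adjusted p under 0.05 in this comparison, where 9 genes (0.0393%) did, all higher in iKD2 Dox+. The other 5 called genes were ANXA1, GSN, SLC2A3, SPARC and VTCN1. The adjusted p was 4.61e-05 for MUC16, 0.0135 for AHNAK, 0.0209 for CD55 and 0.0451 for DSC3. DSC3 lay nearest to the threshold inside it, level with VTCN1, and GABRP at 0.0537 lay just outside.

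Without library iKD2 Dox+ a, iKD2 Dox+ c or iKD2 Dox- c, 1, 1 and 2 members stayed under the threshold. With c, the library of high METTL14, left out, the log2 fold changes were 1.62 for MUC16, 2.26 for CD55, 1.85 for DSC3 and 1.15 for AHNAK. By limma voom 2 members did, and with a filter at a mean of 5 CPM 1 did. MUC16 had an adjusted p under 0.05 in all 16 alternatives tried, AHNAK in 13, DSC3 in 11 and CD55 in 10. The same libraries chose these genes, so the tally describes how the calls depend on the processing and is no support for them.

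MSLN was not chosen on its level, so its comparison is a test. It averaged 1.25 ± 1.81 CPM in iKD2 Dox+ (SD, n = 3) against 7.07 ± 4.48 CPM (SD, n = 2). The fitted log2 fold change was -2.50 (95% interval -8.36 to 3.36). The adjusted p was 1 by edgeR's quasi-likelihood test with Benjamini-Hochberg adjustment, and it was 0.901 or more in the 15 alternatives that gave a value. The interval spans both directions, and libraries of one group differed by as much as 0 and 58 counts. With c of iKD2 Dox+ left out, the log2 fold change was -5.03, and over all single libraries left out it ran from -5.03 to -1.64.

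The second comparison, iKD2 Dox+ against iSCR Dox+, sets the METTL14 vector beside the non-targeting vector, both with doxycycline. MUC16 averaged 2695 against 1209 ± 210.5 CPM (SD, n = 2), a ratio of 2.23 and a log2 fold change of 1.16 (95% interval 0.81 to 1.51). AHNAK averaged 1073 against 576.8 ± 76.8 CPM, a ratio of 1.86 and a log2 fold change of 0.90 (0.52 to 1.27). DSC3 and CD55 stood at ratios of 1.93 and 1.57, with log2 fold changes of 0.95 (0.21 to 1.68) and 0.65 (-0.08 to 1.39).

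Every one of these 4 differences was smaller than in the first comparison, and the drop was largest for CD55, from a ratio of 4.81 to 1.57. Both comparisons use the iKD2 Dox+ libraries. By edgeR's quasi-likelihood test with Benjamini-Hochberg adjustment, MUC16 alone of the members was under the threshold, with an adjusted p of 0.00483, where 6 genes (0.0262%) were. The adjusted p was 0.126 for AHNAK, 0.67 for DSC3 and 0.699 for CD55. Without iKD2 Dox+ a or c no member stayed under it, and without any one of the control libraries 2 did. With c left out, MUC16 had a log2 fold change of 1.06 and an adjusted p of 0.0962 by the same edgeR test.

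MSLN could not be given a fold here in the usual way, since iSCR Dox+ was at 0. Against a floor of 3 counts per library, the iKD2 Dox+ mean was at least 6.17-fold higher, although iKD2 Dox+ b was itself at 0. Without iKD2 Dox+ c this ratio was 1.04, so it rests on that library. The adjusted p was 0.699 by edgeR's quasi-likelihood test with Benjamini-Hochberg adjustment, with a lowest value of 0.174 over 13 alternatives.

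The third comparison, iKD2 Dox- against iSCR Dox+, sets the control groups beside each other, which differ in vector and in drug. MUC16, CD55, DSC3 and AHNAK were lower in both iKD2 Dox- libraries than in both iSCR Dox+ libraries, as 13.2% of the genes tested were. Among genes with a mean of at least 50 CPM this share was 19.2%. The ratios of means were 0.678 for MUC16, 0.327 for CD55, 0.465 for DSC3 and 0.837 for AHNAK. The log2 fold changes were -0.56 (95% interval -0.93 to -0.19), -1.61 (-2.42 to -0.80), -1.10 (-1.90 to -0.31) and -0.26 (-0.65 to 0.14).

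None of the 5 members had an adjusted p under 0.05, with 0.495 for CD55 and 0.826 or more for the others by edgeR's quasi-likelihood test with Benjamini-Hochberg adjustment, and 3 genes (0.0131%) did. At an unadjusted p under 0.05, MUC16 (0.00484), CD55 (4.75e-04), DSC3 (0.00862) and MSLN (0.0396) were included, among 1020 genes (4.45%), and by DESeq2 2 members passed the adjusted threshold, as 411 of 21719 genes (1.89%) did. The iKD2 Dox- libraries also entered the comparisons that chose the genes, so a low level there is part of the choice. For CD55 the gap between the control groups, 1.61 on the log2 scale, exceeded that between iKD2 Dox+ and iSCR Dox+, at 0.65, and did so with any 1 library left out.

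MSLN was the exception, with both iKD2 Dox- libraries above both iSCR Dox+ libraries, as 19.9% of the genes tested were. The iKD2 Dox- mean was at least 35.0-fold higher than the floor of 3 counts per library, and at least 19.3-fold higher without iKD2 Dox- c. The adjusted p was 0.826 by edgeR's quasi-likelihood test with Benjamini-Hochberg adjustment, and 0.0793 at its lowest over 14 alternatives.

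**Figure D2:**
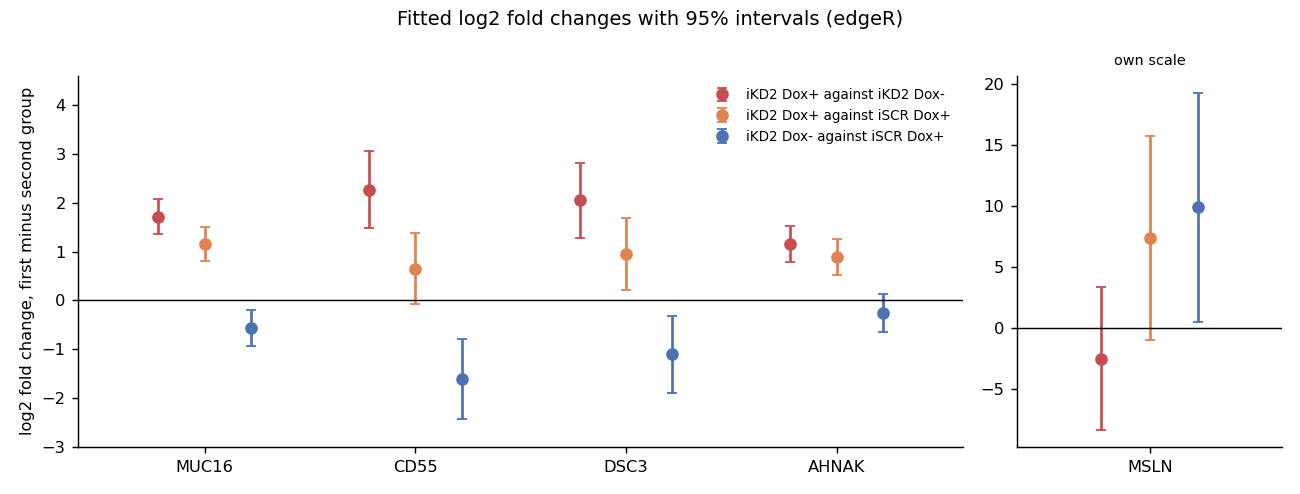
Fitted log2 fold changes (first minus second group, y axis) with 95% intervals for the 3 comparisons, with MSLN on its own scale because both iSCR Dox+ libraries were at 0. MUC16, CD55, DSC3 and AHNAK lie above 0 against iKD2 Dox- (1.15 to 2.26), closer to 0 against iSCR Dox+ (0.65 to 1.16), and below 0 between the control groups, and the MSLN intervals are far wider.

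MUC16 was then set among the other mucins, from lists of genes around each member. For these lists, the background at an unadjusted p under 0.05 by edgeR was 3.72%, 6.72% and 4.45% of all genes tested in the 3 comparisons, and past the adjusted threshold by DESeq2 1.09%, 3.76% and 1.89%. Of the 12 cell-surface mucin genes listed, 8 passed the filter, and besides MUC16 none of the 7 had an adjusted p under 0.05 in any comparison by edgeR, DESeq2 or limma voom. At an unadjusted p under 0.05 by edgeR there were 2, 1 and 1 in the 3 comparisons, in the order given above. Their summed level was 264.5, 198.6 and 388.5 CPM in iKD2 Dox+, 324.1 and 273.6 CPM in iKD2 Dox- and 374.7 and 302.4 CPM in iSCR Dox+, so the groups overlapped. Their median log2 fold change was -0.79 against iKD2 Dox- and -0.89 against iSCR Dox+, while the median of all genes tested was 0.01 and 0.08. The list medians are the values of MUC12 and EMCN, which averaged 4.68 and 0.348 CPM. They thus rest on genes with few counts and do not show that the other surface mucins fell.

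MUC3A, an intestinal surface mucin, was the next most abundant, at 153 to 269 CPM in iKD2 Dox+ and 203 to 256 CPM in iKD2 Dox-. MUC1, the most widespread of these mucins, stood at 86.9, 41.4 and 84.5 CPM in iKD2 Dox+, 12.9 and 35.5 CPM in iKD2 Dox- and 75.6 and 49.2 CPM in iSCR Dox+. MUC1 was thus above iKD2 Dox- but mixed with iSCR Dox+, and MUC13 was lower in all 3 iKD2 Dox+ libraries (4.06 to 16.5 CPM) than in the controls (19.9 to 36.7 CPM). MUC16 held the larger part of all surface-mucin counts in every library, while MUC4, MUC15, MUC21 and MUC22 did not pass the filter. Secreted mucins were lower, with MUC2 at 5.80 to 134 CPM and none of 4 tested past the threshold, or at an unadjusted p under 0.05, in any comparison.

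Of the listed enzymes that start and extend mucin-type sugar chains, 17 were tested, and none had an adjusted p under 0.05 in any comparison by edgeR, DESeq2 or limma voom, with 0, 2 and 1 at an unadjusted p under 0.05. Their summed level was 541.4 to 627.5 CPM in iKD2 Dox+, 527.6 to 555.1 CPM in iKD2 Dox- and 576.9 to 596.7 CPM in iSCR Dox+. GALNT2 and GALNT1, which attach the first sugar to serine or threonine, were the most abundant, at means of 99.5 and 78.9 CPM. The summed level of these enzymes thus overlapped between the groups in which MUC16 differed by a ratio of 3.29.

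Galectins bind sugar chains of mucins, and ERM proteins link membrane proteins to actin and are known to bind the cytoplasmic tail of MUC16. None of the 8 tested had an adjusted p under 0.05 in any comparison by edgeR, with 1, 2 and 1 at an unadjusted p under 0.05. EZR, which encodes ezrin, was the nearest, at 574.7, 498.9 and 516.6 CPM in iKD2 Dox+, 281.9 and 239.7 CPM in iKD2 Dox- and 333.2 and 310.8 CPM in iSCR Dox+. Its log2 fold change against iKD2 Dox- was 1.02 with an adjusted p of 0.105 by edgeR's quasi-likelihood test with Benjamini-Hochberg adjustment, and it was past the threshold by DESeq2 and limma voom. By DESeq2 EZR was also higher against iSCR Dox+, and LGALS8, for galectin-8, was lower against iSCR Dox+ in both iKD2 groups, with edgeR log2 fold changes of -1.08 and -1.27, while MSN, another ERM gene, had -0.15 against iKD2 Dox-. LGALS3, the galectin-3 gene, overlapped between groups at 24.6 to 75.4 CPM in iKD2 Dox+ and 19.1 to 29.3 CPM in iKD2 Dox-.

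The mesothelin family has 4 listed genes, of which OTOA and STRC were tested besides MSLN. Both encode proteins of the inner ear, and neither had a p under 0.05, adjusted or not. STRC, whose counts are uncertain because a near-identical pseudogene copy exists, stood at 8.24 to 18.0 CPM in iKD2 Dox+, 2.45 and 9.21 CPM in iKD2 Dox- and 0.339 and 4.15 CPM in iSCR Dox+. None of the 28 genes that make and attach GPI anchors, which both mesothelin and CD55 carry, had an adjusted p under 0.05 in any comparison by edgeR, DESeq2 or limma voom, with 0, 0 and 1 at an unadjusted p under 0.05. PIGT, of the complex that attaches the anchor, was the most abundant of them at a mean of 121.4 CPM, and the median log2 fold change of the list was -0.12 against iKD2 Dox- and 0.22 against iSCR Dox+.

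CD55 was chosen for its higher level in iKD2 Dox+, and the other complement regulators are given beside it. CD46 and CD59, which also protect the cell surface, had log2 fold changes of 0.20 and 0.05 against iKD2 Dox- where CD55 had 2.26. CD46 stood at 188 to 255 CPM in iKD2 Dox+ and 185 and 195 CPM in iKD2 Dox-, and CD59 at 64.4 to 97.5 CPM and at 69.0 and 88.0 CPM. None of the 8 other regulators tested had an adjusted p under 0.05 in any comparison by edgeR, with 1, 1 and 0 at an unadjusted p under 0.05 and CLU by DESeq2 against iSCR Dox+. Their median log2 fold change was 0.17 against iKD2 Dox- and -0.12 against iSCR Dox+. CLU, the soluble regulator clusterin and the most abundant of the list, was at 370 to 496 CPM in iKD2 Dox+ and 507 and 701 CPM in iKD2 Dox-, which gave a log2 fold change of -0.49. Against iSCR Dox+, VTN, for vitronectin, had a log2 fold change of 1.21 and CD55 had 0.65. CD46 lies 365253 bases from CD55 on chromosome 1.

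DSC3 belongs to a cluster of desmosomal cadherin genes on chromosome 18, and its neighbours there were of the same kind. All 3 genes within 500 kb of DSC3 that averaged at least 5 CPM were desmosomal cadherins, and in each of them all 3 iKD2 Dox+ libraries lay above the 4 controls, the arrangement of 3.47% of all genes tested and of 5.33% of those with a mean of at least 50 CPM. DSC2, 16025 bases away, stood at 229.6 to 260.7 CPM in iKD2 Dox+, 145.6 and 111.2 CPM in iKD2 Dox- and 134.9 and 190.5 CPM in iSCR Dox+.

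DSG2, 455228 bases away, stood at 324 to 402 CPM in iKD2 Dox+ and 168 to 232 CPM in the 4 control libraries. DSG1, at 275274 bases, stood at 58.3 to 62.1 CPM in iKD2 Dox+ and 1.47 to 42.7 CPM in the controls. The log2 fold changes against iKD2 Dox- were 0.94 for DSC2, 0.82 for DSG2 and 1.45 for DSG1, with adjusted p-values of 0.556, 0.661 and 1 by edgeR's quasi-likelihood test with Benjamini-Hochberg adjustment. None of the 3 passed the threshold, and all were lower than the 2.05 of DSC3.

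The remainder of the desmosome was mixed. Of 16 listed desmosome genes, 15 were tested, and none of the 14 besides DSC3 had an adjusted p under 0.05 in any comparison, with 4, 2 and 1 at an unadjusted p under 0.05, the 4 all higher in iKD2 Dox+. By DESeq2, DSG2, DSC2 and JUP were past the threshold against iKD2 Dox- and DSG2 against iSCR Dox+, and by limma voom none. Between the control groups DESeq2 called EVPL, another gene of the list, lower in iKD2 Dox-. The median log2 fold change of the 14 was 0.84 against iKD2 Dox- and -0.11 against iSCR Dox+. DSP, the desmoplakin gene and the most abundant at 3579 to 3963 CPM in iKD2 Dox+, had a log2 fold change of -0.04 against iKD2 Dox-, and PPL, for periplakin, had 0.20. JUP, for plakoglobin, stood at 300.3 to 347.1 CPM in iKD2 Dox+, 151.0 and 183.4 CPM in iKD2 Dox- and 149.4 and 299.7 CPM in iSCR Dox+.

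AHNAK was set beside its partners, in a list of 11 genes that includes AHNAK itself and the paralog AHNAK2. Of the 9 tested besides AHNAK, none had an adjusted p under 0.05 in any comparison by edgeR, with 2, 2 and 4 at an unadjusted p under 0.05, and the median log2 fold change was 0.68 against iKD2 Dox- and 0.58 against iSCR Dox+. ANXA2, for annexin A2, stood at 345, 248 and 362 CPM in iKD2 Dox+, 152 and 120 CPM in iKD2 Dox- and 336 and 207 CPM in iSCR Dox+. Its log2 fold change was 1.22 against iKD2 Dox- (adjusted p = 0.155 by edgeR's quasi-likelihood test) and 0.23 against iSCR Dox+. By DESeq2, S100A11 and ANXA2 were higher against iKD2 Dox-, CAPN3 and AHNAK2 were higher against iSCR Dox+ in both iKD2 groups, and ANXA2 was lower in the comparison of the control groups, while limma voom called none. S100A11, a calcium-binding partner of annexins, had 1.32 and 0.59, with all 3 iKD2 Dox+ libraries above the controls. PLCG1, a phospholipase that binds AHNAK, overlapped at 186 to 218 CPM in iKD2 Dox+ and 136 and 192 CPM in iKD2 Dox-.

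**Figure D3:**
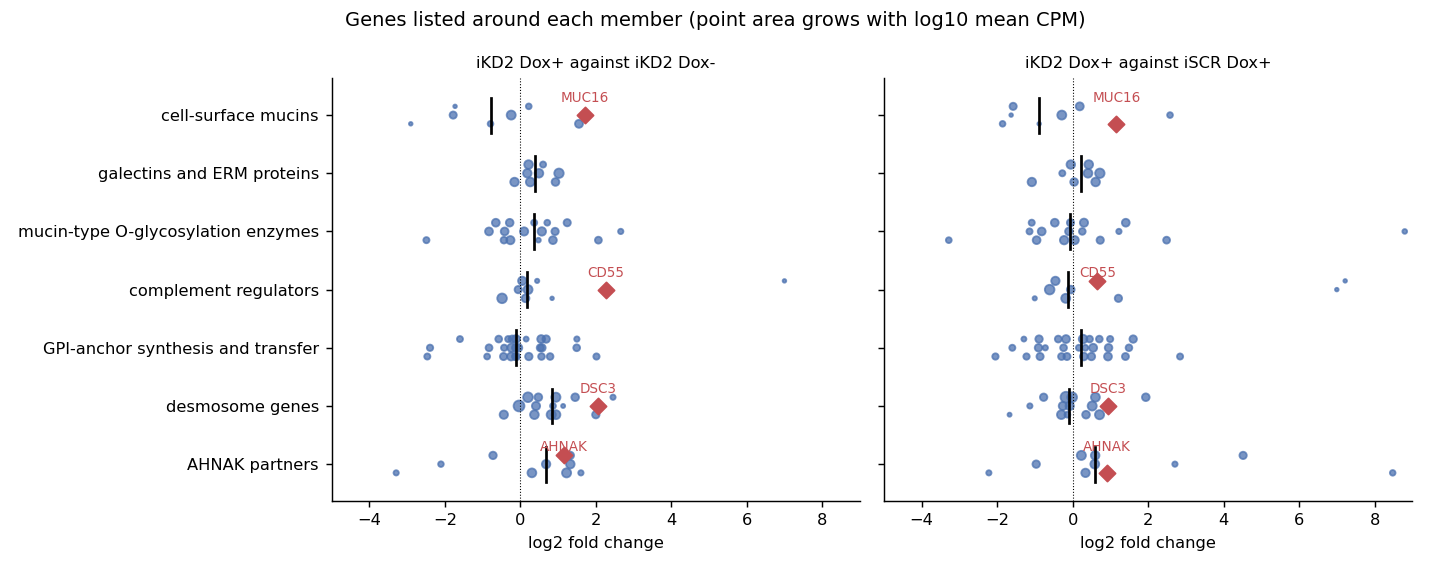
Log2 fold change (x axis) of every tested gene in 7 lists around the members, against iKD2 Dox- on the left and iSCR Dox+ on the right, with members as red diamonds and the median of the other genes as a black bar. MUC16 and CD55 stand to the right of their lists, where the medians are -0.79 and 0.17 against iKD2 Dox-, and DSC3 and AHNAK stand in lists whose medians are 0.84 and 0.68. The mucin median is the value of MUC12, a gene with a mean of 4.68 CPM.

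Neighbouring genes of the other members were examined in the same window of 500 kb. Of 19 tested neighbours of MUC16, none had an adjusted p under 0.05 in any comparison by edgeR, with 1 gene at an unadjusted p under 0.05 in each and a median log2 fold change of -0.07 against iKD2 Dox-. The same held for 40 neighbours of MSLN (median 0.02), 10 of CD55 (median 0.29) and 45 of AHNAK (median -0.11), with 0 to 2 genes each at an unadjusted p under 0.05 and none by limma voom. By DESeq2, ANGPTL4 near MUC16, PFKFB2 near CD55 and TAF6L near AHNAK were past the threshold against iSCR Dox+. ANGPTL4 and PFKFB2 were also past it, and higher in iKD2 Dox-, between the control groups. ZNF558, the nearest neighbour of MUC16 with at least 5 CPM on average, had a log2 fold change of -0.08. The 6 tested neighbours of DSC3, all above 0, had a median of 1.29.

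Because MUC16 and AHNAK are so long, fold changes were summarised by transcript length. The 282 tested coding genes with transcripts over 12000 bases had a median log2 fold change of 0.00 against iKD2 Dox- and 0.12 against iSCR Dox+, where all 15326 had 0.03 and 0.06. Of the 20 longest, MUC16 was the one with an adjusted p under 0.05 against iKD2 Dox-. TTN, for titin, the one longer transcript at 109224 bases, had a log2 fold change of -0.61, and MACF1, a cytoskeletal linker of 24319 bases at a mean of 738.2 CPM, had 0.10. The share of genes with all 3 iKD2 Dox+ libraries above the controls was 7.8% over 12000 bases and 4.09% over all lengths.

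Genes with a pattern most like each member were named by Pearson's r of log2 CPM over the 7 libraries, among 4272 other genes with a mean of at least 50 CPM. These libraries fall into 3 groups, so r mostly tracks the order of the groups and is given as a measure of likeness. For MUC16 the first was MYO5B (r = 0.977, Spearman's rho = 0.964), a myosin motor of apical recycling endosomes, at 232.8 to 284.2 CPM in iKD2 Dox+, 125.9 and 134.6 CPM in iKD2 Dox- and 170.3 and 169.9 CPM in iSCR Dox+. It was followed by LRRFIP1 (r = 0.971), CD9, a tetraspanin of the cell surface (0.969), the receptor NOTCH2 (0.959) and MDK, the growth factor midkine (0.959). An r of 0.95 or more was reached by 8 genes, or 0.187% of those compared.

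For CD55 the first were CRABP2, a retinoic acid binding protein (r = 0.976), PLS3, the actin bundler plastin 3 (0.973), and ST14, the surface protease matriptase (0.961). CRABP2 stood at 74.8, 84.8 and 86.9 CPM in iKD2 Dox+, 28.8 and 19.1 CPM in iKD2 Dox- and 49.7 and 84.0 CPM in iSCR Dox+, and thus, like CD55, was set apart mainly by its low level in iKD2 Dox-. For DSC3 they were GSN, the actin-severing protein gelsolin (r = 0.989), XRCC5, a subunit of the Ku DNA repair complex (0.988), and S100A11 (0.987).

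GSN stood at 370.1, 208.8 and 325.6 CPM in iKD2 Dox+, 96.8 and 68.1 CPM in iKD2 Dox- and 136.4 and 180.3 CPM in iSCR Dox+, with the same low value in iKD2 Dox+ b as DSC3. For AHNAK they were EZR (r = 0.987, rho = 1), MYO5B (0.971) and CD9 (0.967), so MYO5B and CD9 were named for both MUC16 and AHNAK. EZR, listed above among the proteins that bind MUC16, thus followed AHNAK most closely.

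MSLN, by contrast, was most like ZNF398 (r = 0.965), TRO (0.953) and GGA2 (0.942), and 2 genes reached an r of 0.95. TRO, for trophinin, an adhesion protein, stood at 44.1 to 77.0 CPM in iKD2 Dox+, 89.5 and 108.5 CPM in iKD2 Dox- and 36.6 and 49.8 CPM in iSCR Dox+. Since 3 of the 7 MSLN values were 0, its likeness rests on 4 libraries with counts.

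**Figure D4:**
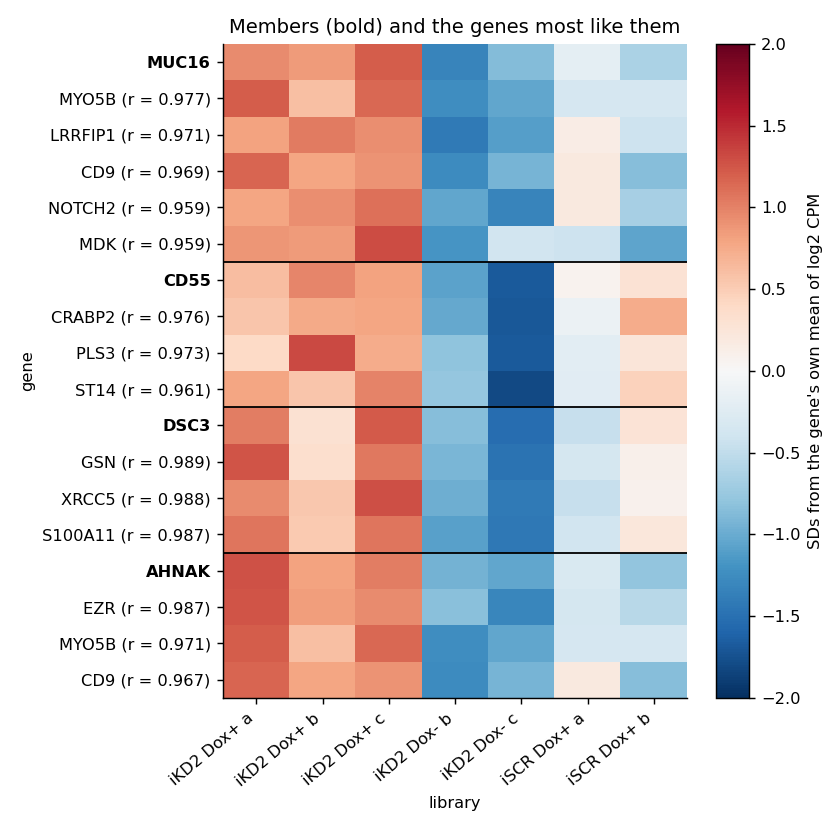
Level of 4 members (bold) and of the genes most like each, per library, as SDs from the gene's own mean of log2 CPM (red above, blue below), with Pearson's r over the 7 libraries beside each name. The iKD2 Dox+ columns are above the mean and the iKD2 Dox- columns below it in every row, and the rows differ mostly in iSCR Dox+ and in iKD2 Dox+ b.

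Markers of cell types that such a sort could hold were measured beside the members. The 14 β-cell markers summed to 26050 to 30490 CPM in iKD2 Dox+, 34720 and 38660 CPM in iKD2 Dox- and 40950 and 41140 CPM in iSCR Dox+. INS was the one marker past the threshold by edgeR, and only in iKD2 Dox+ against iSCR Dox+. Its adjusted p there was 4.71e-04 by edgeR's quasi-likelihood test. INS stood at 12190 ± 1211 CPM (SD, n = 3) in iKD2 Dox+, 16010 ± 1954 CPM (SD, n = 2) in iKD2 Dox- and 21900 ± 558.9 CPM (SD, n = 2) in iSCR Dox+. At an unadjusted p under 0.05 edgeR gave 6, 5 and 3 of the markers, and DESeq2 called CHGA lower against iKD2 Dox- and, among others, PDX1 and INS lower against iSCR Dox+. Between the control groups DESeq2 called INS lower and PCSK1 higher in iKD2 Dox-. The edgeR log2 fold change of INS there was -0.45, and it was -0.85 for iKD2 Dox+ against iSCR Dox+. The iKD2 Dox+ libraries thus had the highest MUC16 and the lowest β-cell marker sums, which consist mostly of INS and CHGA. Of the 14 markers, 4 had a log2 fold change above 0 against iKD2 Dox- and 6 against iSCR Dox+. Between the control groups the order was not inverse, since iKD2 Dox- was lower in MUC16 and in the marker sum.

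Summed levels of epithelial markers were also highest in iKD2 Dox+. The 11 tested ductal markers summed to 1065 to 1135 CPM in iKD2 Dox+, 568.6 and 794.3 CPM in iKD2 Dox- and 687.4 and 822.4 CPM in iSCR Dox+, led by KRT19, a keratin of simple epithelia, at 533 to 640 CPM in iKD2 Dox+. The 10 tested squamous and basal markers summed to 386.0 to 605.9 CPM, 114.8 and 278.1 CPM, and 211.6 and 302.7 CPM in the same order, while KRT14 and S100A2, which define basal cells, did not pass the filter. None of these 21 genes had an adjusted p under 0.05 in any comparison by edgeR or limma voom, while by DESeq2 SOX9, KRT19, TRIM29 and KRT5 were higher past the threshold against iKD2 Dox- and KRT19, AQP1 and TRIM29 against iSCR Dox+. Between the control groups DESeq2 also called AQP1 higher and KRT5 lower in iKD2 Dox-, and AQP1 was at 0 CPM in both iSCR Dox+ libraries. Before adjustment, edgeR gave a p under 0.05 for 2, 3 and 2 ductal and 3, 1 and 1 squamous and basal markers in the 3 comparisons.

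Of 12 amnion and surface ectoderm markers, which include further surface genes, VTCN1 alone passed the threshold by edgeR, against iKD2 Dox-, with 5, 4 and 3 at an unadjusted p under 0.05. DESeq2 called GABRP, GATA3, HAND1 and VTCN1 higher against iKD2 Dox-, TFAP2B and GABRP higher against iSCR Dox+ and VTCN1 lower between the control groups, and limma voom called none. VTCN1, an inhibitory ligand of T cells, stood at 145, 111 and 114 CPM in iKD2 Dox+, 32.2 and 26.1 CPM in iKD2 Dox- and 58.1 and 82.9 CPM in iSCR Dox+, the order of groups seen for MUC16. The summed level of the list overlapped between groups, at 996.7 to 1650 CPM in iKD2 Dox+, 790.3 and 827.6 CPM in iKD2 Dox- and 951.5 and 1318 CPM in iSCR Dox+. The 7 tested mesothelial markers besides MSLN had none past the threshold, nor at an unadjusted p under 0.05 or by DESeq2 or limma voom, and summed to 115.3 to 200.1 CPM, 182.0 and 240.7 CPM, and 236.2 and 253.7 CPM, and WT1, UPK3B, HAS1 and PRG4 did not pass the filter. Over the 148 tested list genes that are no member, DESeq2 called 14 higher and 1 lower against iKD2 Dox-, where it called 231 of 21274 genes and 201 of them higher. It called 9 higher and 6 lower against iSCR Dox+, where it called 750 of 19941 genes and 540 of them higher. In the same comparisons edgeR called VTCN1 and INS. Between the control groups DESeq2 called 4 of the 148 higher and 6 lower in iKD2 Dox-, where it called 411 of 21719 genes. There edgeR called none of the 148. What part these cell types had in the levels of the members was not tested.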

How the data were processed

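Total RNA from sorted β-like cells was sequenced by the authors with a stranded kit. Per the study's methods and the submitters' notes, reads were trimmed with fastp, assigned to the human transcriptome with Kallisto and summed to genes with tximport. The deposited values are these estimated counts per Ensembl gene. Versions, build and annotation are not given in the sources used here. After rounding, edgeR 4.0.16 (robust quasi-likelihood test; R 4.3.3; limma 3.58.1; DESeq2 1.42.0) was applied with filterByExpr, TMM scaling, the 3 groups in 1 fit and Benjamini-Hochberg adjustment over 22926 genes at a threshold of 0.05. The fit was tested on simulated data. CPM used TMM-scaled totals of 14770494 to 20527119 counts, and 3 counts in a library, on the same scale, were taken as its floor, for counting error only. Transcript features, positions and neighbours came from GENCODE 29, start regions from RefSeq (4 of the 5 members matched). The members, the 14 gene lists and the tests were chosen with earlier results of these data known. Besides the members, the text names METTL14, INS, up to 4 genes of each list by mean CPM, list genes past the threshold, neighbours averaging at least 5 CPM and the 3 (5 for MUC16) genes most like each member. The other called genes, GABRP, S100A11 and markers named as untested or mixed (such as MUC12, EMCN, MUC13, MSN, LGALS3, STRC, SOX9, TRIM29, KRT5, LGALS8, VTN, CAPN3, AHNAK2, GATA3, HAND1, TFAP2B, AQP1, CHGA, PDX1, PCSK1, EVPL and 3 neighbours by DESeq2) were named after their values were seen. Scaling, filter, test, samples, replicate block and left-out libraries were varied.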

Additional observations from a re-analysis of the deposited data

How the results depend on the processing

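In 226 member fold changes recomputed under the alternatives, 0 changed direction. The groups did not overlap for MUC16, CD55, DSC3 and AHNAK, which were chosen for their levels, and MSLN was at 0 throughout iSCR Dox+. Leaving out a library or rescaling could thus hardly reverse a sign, so this count says little about robustness. Counts of calls moved far more. Against iKD2 Dox-, the 9 genes called became 51 with no filter beyond 1 count, 2 at a mean of 5 CPM, 231 by DESeq2 and 2 to 115 with a library left out, and the 4 members past the threshold became 1 at 5 CPM, 2 by limma voom and 1 to 4. Against iSCR Dox+, the 6 genes became 66, 3, 750 and 2 to 544 in that order, and the 1 member became 2 with no filter, by DESeq2 or by limma voom, 0 at 5 CPM and 0 to 2 with a library left out. Between the control groups, the 3 genes became 32, 1, 411 and 2 to 445, or 0 with only these groups in the fit, and the 0 members became 2 by DESeq2 and 0 to 2 with a library left out. The cause was not tested. With the letter as a replicate block over all groups, 18, 15 and 8 genes and 4, 2 and 0 members were called, and with the block over iKD2 b and c alone 55 genes and 4 members against iKD2 Dox-. Whether letters shared by groups mark pairs was not settled. The deviations of same-letter libraries from their group means correlated at -0.03 to 0.02. In groups of 2 libraries such deviations mirror each other, so these values cannot decide it. MSLN gave no value at a mean of 5 CPM. The MSLN counts were 0 in 3 libraries and up to 188 in the others, and whether depth sets this spread was not tested.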
